A study of Homo sapiens with 79 samples.

Results

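The genes described here are 8 that Müller glia, the radial glia of the retina, use to keep the surroundings of neurons constant: GLUL, SLC1A3, AQP4, KCNJ10, CA2, CA14, GPX3 and CLU. They were taken by their symbols as row names of the count table, and all 8 were present among its 24414 gene rows. The question was where and when in the organoids these genes were read, over 3 time points and among the cell classes of each. The cells came from H9, an established hESC line that carried a CRX-GFP reporter, grown into retinal organoids, which are layered aggregates that resemble the developing retina. Every group shared this 1 line, 1 reporter and the same medium, with fetal calf serum, T3, taurine and retinoic acid added during differentiation, so there is no second genotype. Organoids were dissociated at day 60, day 90 and day 200 and captured on Fluidigm C1 chips, 1 at day 60, 1 at day 90 and 2 at day 200, called chip a and chip b.

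Müller glia span the whole thickness of the retina and touch every neuron in it. They take up glutamate through the transporter GLAST (SLC1A3) and turn it into glutamine with glutamine synthetase (GLUL), which neurons take back. Potassium released by active neurons passes through the inward rectifier Kir4.1 (KCNJ10), and water moves with it through aquaporin 4 (AQP4). Carbonic anhydrases (CA2 in the cytoplasm, CA14 on the cell surface) handle carbon dioxide and bicarbonate from photoreceptor metabolism. GPX3 is the secreted glutathione peroxidase, and CLU (clusterin) is a secreted chaperone and lipid carrier. In the human retina CA2 is also known from cones, and several of these genes are shared with astrocytes and with the pigment epithelium.

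The values are reads per gene and cell, and a level is given in CPM, the reads of a gene divided by the reads of all gene rows and multiplied by 1000000. The table held 1976 cells, with 578 at day 60, 661 at day 90, 356 of chip a and 381 of chip b, in 79 chip columns, which are the samples. The columns held between 3414268 and 7999822 reads. The columns of a chip share 1 suspension of cells and are not replicates, so no test between time points was made, and replicate error can be judged from the distance between chip a and chip b alone. Ranges in parentheses are exact 95% intervals. Those of CPM treat each read as an independent count. These libraries carry no molecular identifiers and each copy of a molecule adds a read, so such intervals are too narrow even for counting error. None of the intervals covers the spread between chips. Chip a stood apart, with 22 called doublets against 2 on chip b and a median of 1672 genes per cell at 50000 reads, against 2775 on chip b, 3134 at day 60 and 2885 at day 90. Each day 200 value is therefore given for both chips. The chips shared 38 of the 40 row barcodes of the C1 format, and no pair of cells had identical counts.

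Of the 8 genes, 6 were at least 2-fold higher on both day 200 chips than at day 60 on the log2(CPM + 1) scale: SLC1A3, AQP4, KCNJ10, CA2, GPX3 and CLU. The same held for 7.70% of the 12365 genes with a mean of at least 5 CPM over the 4 chips. KCNJ10, with a mean of 4.90 CPM, lay below that minimum and AQP4 passed it, at 5.98 CPM, only through its level on chip a. None of the 8 was 2-fold lower on both chips, against 3.23% of all genes. The median log2 difference between day 200 and day 60 was 1.64 over the 8 genes and 0.07 over all genes passing the minimum. GLUL and CA14 stayed short of the 2-fold mark, GLUL on both chips and CA14 on chip b. At day 90, 3 of the 8 were already 2-fold above day 60 (CA2, CA14 and GPX3), against 10.5% of all genes, and none was 2-fold below it, against 6.88%. Between day 90 and both day 200 chips it was also 3 (SLC1A3, KCNJ10 and GPX3), against 2.60%, with none lower, against 1.75%. The comparisons share the chips of day 60 or day 200, so they are not independent. In a sum over all cells, more cells of a type and more RNA per cell cannot be told apart. Levels within classes of cells are given for that reason, though a class can itself hold a changing mix of clusters.

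**Figure D1:**
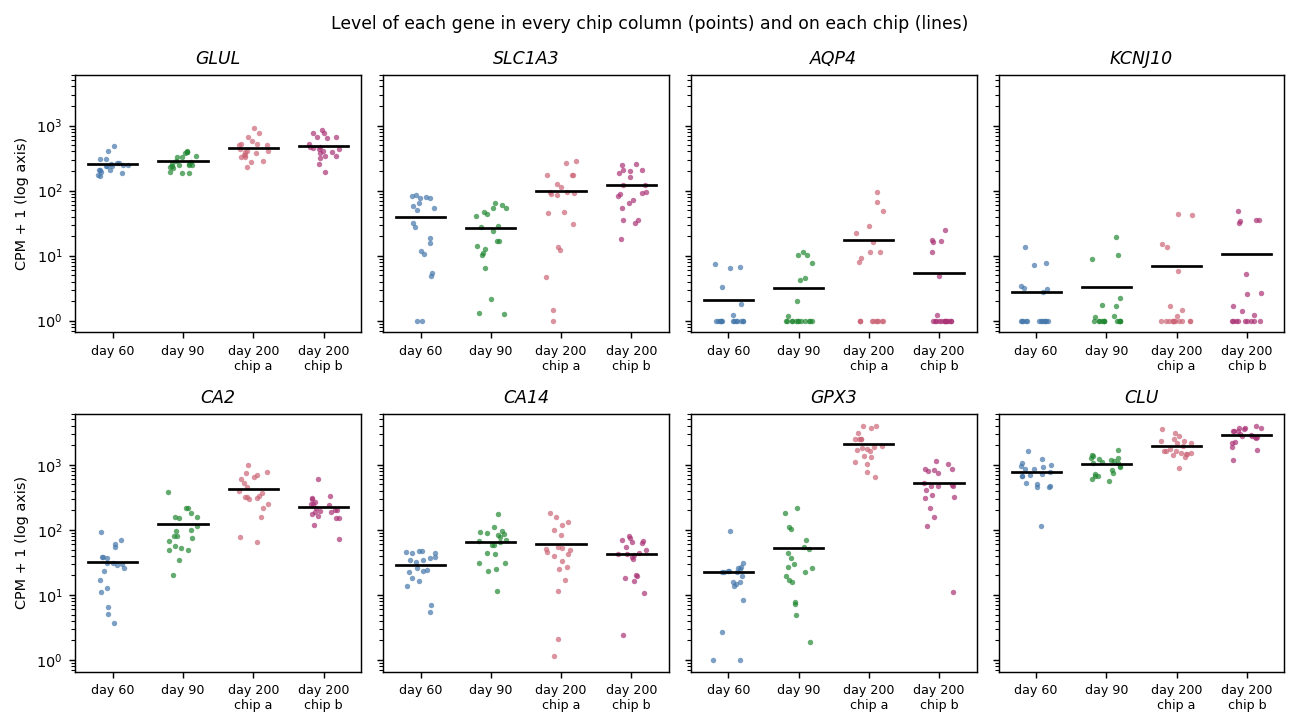
Level of each of the 8 genes in every chip column (points) and over the whole chip (black line), as CPM + 1 on a log axis, for day 60 (19 columns), day 90 (20 columns) and the day 200 chips (20 columns each). GPX3 differs most between day 60 and day 200, and AQP4 and KCNJ10 sit at 0 CPM in many columns of every chip.

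Cells were clustered without the 8 genes among the variable genes, and clusters were named from the marker lists of the study without CLU and GPX3, which stand on its Müller glia list, so that the classes do not use the members. This gave 12 clusters. The Müller glia-like class held 546 cells (155 at day 60, 157 at day 90 and 111 on chip a against 123 on chip b) in a larger cluster of 456 cells with 7 of the 8 remaining markers and a smaller one of 90 cells with 5, which was led by ABCB1 and RGS4. At day 60 this class shares its markers with progenitors, since VIM, HES1 and SFRP2 also mark retinal progenitor cells. Other classes were cone-like (233 cells), rod-like (266 cells, of which 205 lay in a cluster led by VSX1, KLHL35 and LHX4 and 61 in a cluster with GNAT1 and NRL), RGC-like, RPE-like, mitotic-like, ECM-like, cells like clusters 7 and 8 of the study, and an unnamed cluster of 316 cells led by the stress and starvation genes GDF15, ANGPTL4, SCD and TRIB3. All 57 rod-like cells of day 60 lay in the VSX1 cluster, while the GNAT1 and NRL cluster held 26 rod-like cells of chip a and 11 of chip b, so the rod-like class sits in different clusters over time. The VSX1 cluster had 6 of the 10 rod markers but also 4 RGC markers, and the GNAT1 and NRL cluster 8 rod and 7 cone markers. The name rod-like follows the list rule alone and does not establish that these cells are rods, least of all at day 60. Cone-like and rod-like cells are called photoreceptor-like below in this sense only. Levels of a class are given for chips with at least 20 of its cells.

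Within Müller glia-like cells all 8 genes, GLUL and CA14 included, were at least 2-fold higher on both day 200 chips than at day 60, against 9.10% of the 11883 genes past the minimum in these cells, and none was lower, against 5.44%. The median log2 difference was 2.33 over the 8 genes and -0.01 over all genes. The clusters were named over all chips together, and at day 60 the class shares markers with progenitors. How far the differences come from progenitors among its day 60 cells was not tested. The study chose CLU and GPX3 as Müller glia markers on these same cells, so these 2 are not independent of it. AQP4 had 1 read and KCNJ10 9 reads in Müller glia-like cells at day 60. AQP4 passed the minimum through chip a, and KCNJ10 mainly through the day 200 chips (17.4 and 12.9 CPM). Both thus entered this count through chips where they are high. In the larger cluster alone, an alternative chosen after seeing the data, it was 7 of 8, against 9.23% of genes. GLUL was the exception there, with 0.84 on chip b. The smaller cluster had only 11 cells at day 60, without a read of AQP4, KCNJ10 or GPX3. In it 4 of the 8 passed on both chips (SLC1A3, AQP4, CA2 and GPX3), against 17.8% of genes. GLUL there had 0.23 on chip a against 0.86 on chip b. This cluster held 11 of the 155 class cells at day 60 and 41 of the 123 of chip b. Its GLUL level was above that of the larger cluster at day 60 (386 against 218 CPM) and on chip b (702 against 391). The class value of GLUL on chip b thus joins a change in mix with levels within cells, and their parts were not tested. Outside the Müller glia-like class 3 of the 8 passed on both chips (AQP4, CA2 and GPX3), with AQP4 below the minimum of 5 CPM there, against 7.95% of genes. In cone-like cells it was 2 (CA2 and GPX3), against 11.1%, and in rod-like cells the same pair, against 13.5%. The unnamed cluster had 5 (GLUL, SLC1A3, CA2, GPX3 and CLU), against 13.1%. The differences between classes were not tested.

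**Figure D2:**
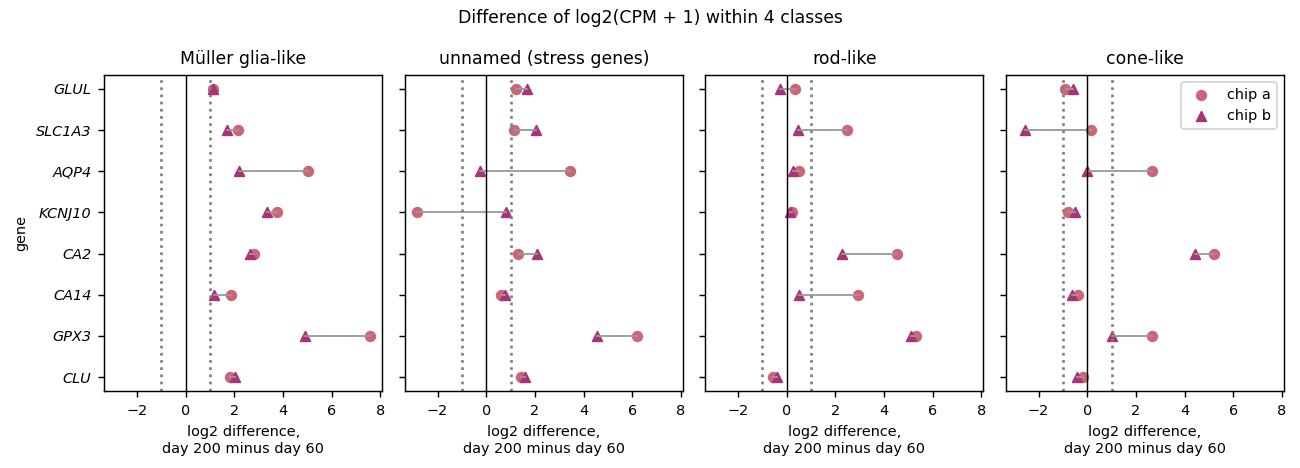
Difference of log2(CPM + 1) between day 200 and day 60 for each gene, on chip a (circles) and chip b (triangles), within 4 classes. Dotted lines mark 2-fold. In Müller glia-like cells all points lie right of the upper dotted line, and in cone-like cells only CA2 and GPX3 do so on both chips.

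The promoters are shown for genes that were higher together at day 200 in Müller glia-like cells and whose RefSeq start lies at or before the start of the GENCODE gene. In the table of RefSeq promoters (GRCh38.p14) used here, 6 of the 8 genes were matched, and CA2 and CLU were not. The 250 bases before the start are printed 5′ to 3′ on the strand of the gene, with the letters of the SOX motif (ATTGT or ACAAT) and the NFI motif (TTGGC or GCCAA) in capitals, since SOX9 and the NFI factors are known regulators of retinal glia. The windows are chr5:36596338-36596587 on the forward strand for SLC1A3, chr18:26865804-26866053 on the reverse strand for AQP4, chr1:160070161-160070410 on the reverse strand for KCNJ10 and chr5:151020341-151020590 on the forward strand for GPX3.
SLC1A3: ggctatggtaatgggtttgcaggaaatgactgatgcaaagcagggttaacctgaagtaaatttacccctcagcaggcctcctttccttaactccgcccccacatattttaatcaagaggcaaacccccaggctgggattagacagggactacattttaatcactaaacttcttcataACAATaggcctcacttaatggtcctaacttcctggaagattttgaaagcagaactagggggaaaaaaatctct
AQP4: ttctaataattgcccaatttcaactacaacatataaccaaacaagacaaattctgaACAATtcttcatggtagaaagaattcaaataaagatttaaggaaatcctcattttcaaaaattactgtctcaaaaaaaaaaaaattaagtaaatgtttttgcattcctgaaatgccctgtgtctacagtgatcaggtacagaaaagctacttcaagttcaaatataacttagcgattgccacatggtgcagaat
KCNJ10: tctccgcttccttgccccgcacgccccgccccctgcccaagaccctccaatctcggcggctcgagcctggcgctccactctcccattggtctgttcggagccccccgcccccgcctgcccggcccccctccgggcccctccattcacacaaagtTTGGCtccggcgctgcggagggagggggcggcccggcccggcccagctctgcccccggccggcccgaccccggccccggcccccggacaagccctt
GPX3: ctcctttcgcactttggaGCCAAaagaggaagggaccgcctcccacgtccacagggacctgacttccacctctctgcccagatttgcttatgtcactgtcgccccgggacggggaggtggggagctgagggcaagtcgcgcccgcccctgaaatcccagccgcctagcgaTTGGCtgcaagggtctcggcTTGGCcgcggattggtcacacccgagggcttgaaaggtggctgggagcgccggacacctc
Only promoter 1 of each gene is printed. In its window of 300 bases, 250 before and 50 after the start, SLC1A3 and AQP4 each held 1 SOX motif. It began 73 and 194 bases before the start, and neither window held an NFI motif. KCNJ10 held 1 NFI motif 96 bases before the start, and GPX3 held 3, at 232, 80 and 60 bases before it. Such short words are common: of all 35116 promoters in the same table, 27.4% held the SOX motif and 45.6% the NFI motif on either strand. An E-box (CACGTG, in 7.26% of promoters) or a TATA box (TATAAA, in 11.5%) was in none of the 4 windows. SLC1A3 and AQP4 have further RefSeq starts inside the annotated gene, whose promoters are not printed. For SLC1A3, promoter 2 held 1 NFI motif 136 bases before its start, and promoter 3 held 1 SOX motif just after its start. For AQP4, promoter 2 held none of the 4 motifs, and promoter 3 held a TATA box 41 bases before its start. The first promoters of GLUL and CA14, which lie inside the annotated gene and are not printed, held 1 NFI motif each, 67 and 37 bases before the start. A match is a run of letters, not a bound site, and these files hold no measurement of binding.

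GLUL (chromosome 1, 182378098 to 182392206, reverse strand of GRCh38) was read throughout the organoids. Its level over all cells was 260.3 (257 to 263) CPM at day 60, 284 (281 to 287) CPM at day 90 and 454 (450.1 to 459) CPM on chip a against 487 (483 to 492) CPM on chip b of day 200. By column, levels ranged from 166 to 489.9 CPM (median 242) at day 60, from 183 to 401 CPM (median 254) at day 90 and from 229 to 904 CPM (median 403) on chip a against 189.6 to 869.6 CPM (median 445) on chip b. The groups overlapped, with 8 of 20 columns of chip a and 7 of 20 of chip b above the highest day 60 column. The log2 difference from day 60 was 0.80 on chip a against 0.90 on chip b, and the chips lay 0.10 apart. In Müller glia-like cells GLUL was at 234 CPM at day 60, 392 at day 90 and 512 on chip a against 513 on chip b. The log2 difference was 1.13 on chip a against 1.13 on chip b. It was 1.25 and 0.84 in the larger cluster of the class and 0.23 and 0.86 in the smaller one. The whole class held 21.2% of the GLUL reads of day 60, 34.7% of those of chip a and 36.4% of those of chip b. This was close to its 23.6%, 30.8% and 34.5% of all reads. The highest day 200 levels were in the unnamed stress cluster, which had 357 CPM at day 60, 260.2 at day 90 and 831 on chip a against 1153 on chip b. Cone-like cells had less at day 200 than at day 60, with 276 CPM at day 60, 146 at day 90 and 146 on chip a against 182 on chip b. At 50000 reads per cell, a read of GLUL was found in 72.9%, 73.7%, 72.97% and 88.6% of Müller glia-like cells in the same order of chips, so the level differed more than the share of cells with a read.

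SLC1A3 (chromosome 5, 36596588 to 36688334, forward strand) was at 38.2 (37.02 to 39.4) CPM at day 60, 25.9 (24.95 to 26.8) CPM at day 90 and 98.4 (96.4 to 100.4) CPM on chip a against 119 (117 to 121) CPM on chip b of day 200. By column, levels ranged from 0 to 85.8 CPM (median 31.1) at day 60, from 0.274 to 63.6 CPM (median 19.6) at day 90 and from 0 to 282 CPM (median 90.2) on chip a against 16.8 to 259.9 CPM (median 92.7) on chip b. Its day 90 level was the lowest of the chips, and 12 of 20 columns of chip a and 12 of 20 of chip b lay above the highest day 60 column, so the groups overlapped. The log2 difference from day 60 was 1.34 on chip a against 1.62 on chip b, and the chips lay 0.27 apart. SLC1A3 in Müller glia-like cells was at 46.4 CPM at day 60, 66.4 at day 90 and 209.6 on chip a against 154 on chip b. Reads were found in 14.2%, 24.4%, 32.4% and 47.97% of these cells at 50000 reads per cell, in the order day 60, day 90, chip a and chip b. Here the share of cells with a read and the level were both higher at day 200. The highest level stood in another class: the cells like cluster 8, whose leading genes were GPC3, SPARCL1 and S100B, had 236 (224 to 249) CPM in 31 cells of day 60 and 347 (336 to 358) CPM in 50 cells of chip b. Cone-like cells had 17.4 CPM at day 60, 16.7 at day 90 and 19.2 on chip a against 2.14 on chip b.

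AQP4 (chromosome 18, 26852043 to 26865771, reverse strand) was among the least read of the 8. It was at 1.05 (0.862 to 1.26) CPM at day 60, 2.22 (1.96 to 2.51) CPM at day 90 and 16.3 (15.5 to 17.2) CPM on chip a against 4.33 (3.91 to 4.78) CPM on chip b of day 200. These sums rest on few cells, since 6, 14, 22 and 9 cells had a read, and 3 cells held at least 50% of the reads on each day 200 chip. Of the columns, 13 of 19 at day 60, 12 of 20 at day 90 and 10 of 20 on chip a against 13 of 20 on chip b had no read, and the highest column had 92.9 CPM and on chip a. The log2 differences from day 60 were 3.08 on chip a against 1.38 on chip b, so the chips differed by 1.70, which is more than 2-fold, as 12.9% of all genes did. In Müller glia-like cells there was 1 read in 155 cells at day 60 (up to 0.225 CPM), 1.56 CPM at day 90 and 32.6 CPM in 9 of 111 cells on chip a against 3.70 CPM in 3 of 123 cells on chip b. No fold is given against a single read. The unnamed cluster of chip a had 29.96 CPM and cells like cluster 8 of chip b 22.4 CPM, so AQP4 was not restricted to Müller glia-like cells. AQP4-AS1 is annotated across AQP4 on the opposite strand and had 0.915, 2.02, 4.86 and 4.44 CPM on the 4 chips. The strand setting of the counting is not given in the sources used here, so reads of this pair cannot be told apart with certainty.

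KCNJ10 (chromosome 1, 159998651 to 160070160, reverse strand) was read in few cells too: 9 at day 60, 13 at day 90 and 15 on chip a against 19 on chip b. Its level was 1.72 (1.48 to 1.995) CPM at day 60, 2.26 (1.998 to 2.56) CPM at day 90 and 5.90 (5.42 to 6.40) CPM on chip a against 9.73 (9.09 to 10.4) CPM on chip b of day 200. The columns overlapped widely, with no read in 12 of 19 at day 60, 12 of 20 at day 90 and 12 of 20 on chip a against 9 of 20 on chip b. Day 200 lay above day 60 by a log2 difference of 1.34 on chip a against 1.98 on chip b. KCNJ10 in Müller glia-like cells was at 0.363 (0.166 to 0.689) CPM at day 60, 7.67 (6.61 to 8.85) CPM at day 90 and 17.4 (15.9 to 18.98) on chip a against 12.9 (11.6 to 14.2) on chip b. The day 60 value rests on 9 reads in 2 cells, and on chip a and chip b 9 of 111 and 8 of 123 cells had a read. Müller glia-like cells held 4.97% of the reads of this gene at day 60, 71.4% at day 90 and 90.9% on chip a against 45.6% on chip b. These shares follow from very few cells, since 2 cells held at least 50% of the KCNJ10 reads at day 60, at day 90 and on chip a, and 3 did on chip b. On chip b, cells like cluster 8 had 27.6 CPM and the unnamed cluster 11.6 CPM. PIGM is annotated within KCNJ10 on the same strand, at between 96.2 and 143 CPM on the 4 chips, and its part in the KCNJ10 counts was not tested. For both channel genes most cells of the class had no read at day 200, which in libraries of this depth bounds the read, not the protein.

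CA2 (chromosome 8, 85463968 to 85481493, forward strand) had its highest levels in cone-like cells from day 90 on. Over all cells it was at 31.3 (30.2 to 32.3) CPM at day 60, 121 (119 to 123) CPM at day 90 and 420.4 (416 to 424) CPM on chip a against 228 (225 to 231) CPM on chip b of day 200. By column, levels ranged from 2.76 to 90.9 CPM (median 28.7) at day 60, from 19.2 to 383 CPM (median 88.2) at day 90 and from 63.8 to 1011 CPM (median 349.6) on chip a against 70.9 to 597 CPM (median 201) on chip b. Nearly all day 200 columns, 18 of 20 columns of chip a and 19 of 20 of chip b, lay above the highest day 60 column, and 10 of 20 day 90 columns did. The log2 difference from day 60 was 1.92 at day 90 and 3.71 on chip a against 2.83 on chip b of day 200. In cone-like cells CA2 had 38.7 (34.95 to 42.8) CPM at day 60, 415 (406 to 424) CPM at day 90 and 1447 (1429 to 1465) on chip a against 857 (835 to 879) on chip b and a log2 difference of 5.19 on chip a against 4.43 on chip b. In Müller glia-like cells it had 42.8 CPM at day 60, 72.7 at day 90 and 309.5 on chip a against 275 on chip b and with log2 differences of 2.82 on chip a against 2.65 on chip b. At day 60 both classes were close, and at day 90 and day 200 the cone-like level was the higher of the 2 on every chip. Cone-like cells held 58.7% of CA2 reads at day 90 and 61.5% on chip a against 29.5% on chip b, where they made up 15.1%, 16.6% and 7.35% of the cells. The more numerous Müller glia-like cells held 22.7% of the reads of chip a and 41.7% of those of chip b. Of the cells with the most reads, which together held at least 50%, 17 of 21 were cone-like at day 90 and 15 of 18 on chip a against 6 of 22 on chip b, where 10 were Müller glia-like. At 50000 reads a read of CA2 was found in 32.6%, 68.7%, 84.7% and 75% of cone-like cells and in 23.9%, 45.5%, 61.3% and 60.98% of Müller glia-like cells, in the order of the chips. Rod-like cells of chip a had 193 CPM and those of chip b 38.8 CPM. CA3-AS1 overlaps the start of CA2 on the opposite strand, and had at most 1.38 CPM on a chip.

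CA14 (chromosome 1, 150257251 to 150265078, forward strand), the membrane-bound enzyme, had its highest chip level at day 90. It was at 28.3 (27.3 to 29.3) CPM at day 60, 64.7 (63.2 to 66.2) CPM at day 90 and 60.4 (58.9 to 62) CPM on chip a against 42.05 (40.7 to 43.4) CPM on chip b of day 200. By column, levels ranged from 4.52 to 46.8 CPM (median 30.9) at day 60, from 10.3 to 175 CPM (median 65.9) at day 90 and from 0.169 to 184 CPM (median 46.7) on chip a against 1.44 to 80.5 CPM (median 41.7) on chip b, and all groups overlapped. The log2 difference from day 60 was 1.16 at day 90 and 1.07 on chip a against 0.55 on chip b of day 200, where the chips were 0.51 apart. In Müller glia-like cells the level was 26.4 CPM at day 60, 114 at day 90 and 98.2 on chip a against 60.7 on chip b, so in these cells too the day 90 value was the highest. RPE-like cells of day 90, the only chip with at least 20 of them, had 145 (139 to 151) CPM and a read in 60.3% of 78 cells at 50000 reads, against 31.4% of Müller glia-like cells. Cone-like cells stayed low, with 15.1 CPM at day 60, 16.1 at day 90 and 11.4 on chip a against 9.43 on chip b. Rod-like cells had 7.11 CPM at day 60, 38.03 at day 90 and 60.7 on chip a against 10.6 on chip b.

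GPX3 (chromosome 5, 151020591 to 151028988, forward strand) differed most of the 8, over time and between the day 200 chips. Its level was 21.3 (20.5 to 22.2) CPM at day 60, 51.2 (49.95 to 52.6) CPM at day 90 and 2069 (2059.7 to 2078) CPM on chip a against 534 (529 to 538) CPM on chip b of day 200. By column, levels ranged from 0 to 95.1 CPM (median 21.2) at day 60, from 0.893 to 217 CPM (median 27.8) at day 90 and from 655 to 4031 CPM (median 1851) on chip a against 10.1 to 1155 CPM (median 473) on chip b. The day 60 and day 200 columns hardly overlapped, since 20 of 20 columns of chip a and 19 of 20 of chip b lay above the highest day 60 column, while 4 of 20 day 90 columns did. The log2 difference from day 60 was 1.23 at day 90 and 6.53 on chip a against 4.58 on chip b of day 200, and the chips of day 200 lay 1.95 apart, or 3.87-fold. Müller glia-like cells had GPX3 at 25.4 CPM at day 60, 119.8 at day 90 and 4989 on chip a against 791 on chip b. The median Müller glia-like cell had 1978 CPM on chip a against 5.99 CPM on chip b, and 63.1% and 16.3% of them were at 1000 CPM or more, while the highest of 155 at day 60 had 723 CPM. Of the cells on chip a, 20 of 356 held at least 50% of the GPX3 reads, 17 of them Müller glia-like. At 50000 reads a read of GPX3 was found in 10.3%, 16.03%, 81.98% and 46.3% of Müller glia-like cells, in the order of the chips. Cells like cluster 8 of chip b reached 1124 CPM, above the Müller glia-like cells of the same chip and and the unnamed cluster had 1427 CPM on chip a against 466 on chip b.

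Reads of GPX3 were found in other classes of chip a as well. Of 59 cone-like cells, 32 had 1 to 10 reads and 15 had more and with a median of 6.91 CPM. The cone-like sum was 153 CPM on chip a against 49.2 CPM on chip b, far below the Müller glia-like sums of the same chips. Rod-like cells had 304 and 264 CPM. On chip b, 2479 of the 2903 rod-like reads came from 3 of the 11 cells of the GNAT1 and NRL cluster, and the 44 cells of the VSX1 cluster had 48.7 CPM. The origin of the GPX3 reads in photoreceptor-like cells was not tested.

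CLU (chromosome 8, 27596917 to 27614700, reverse strand) was read in most cells of every chip. Its level was 775 (769.8 to 781) CPM at day 60, 1045 (1039.5 to 1051) CPM at day 90 and 1967 (1958 to 1976) CPM on chip a against 2879.8 (2869 to 2891) CPM on chip b of day 200. By column, levels ranged from 113 to 1664 CPM (median 722) at day 60, from 561 to 1684 CPM (median 1071) at day 90 and from 908 to 3517 CPM (median 1724) on chip a against 1199.5 to 3908 CPM (median 2871) on chip b. Here 11 of 20 columns of chip a and 19 of 20 of chip b lay above the highest day 60 column, so chip a overlapped with day 60 more than chip b did. The log2 difference from day 60 was 1.34 on chip a against 1.89 on chip b. CLU in Müller glia-like cells was at 1219 CPM at day 60, 2057 at day 90 and 4304 on chip a against 4909 on chip b, and the median cell had 1028, 1771, 3728 and 4342 CPM in the same order. The log2 difference in these cells was 1.82 on chip a against 2.01 on chip b. Müller glia-like cells held 37.2% of CLU reads at day 60, 41.5% at day 90 and 67.3% on chip a against 58.9% on chip b. Cells like cluster 8 were above them at day 60, with 1364 CPM, and below them on chip b, with 4659 CPM. Cone-like cells had 326 CPM at day 60, 214 at day 90 and 284 on chip a against 239.9 on chip b, and rod-like cells 939 CPM at day 60, 286 at day 90 and 627 on chip a against 707 on chip b, so neither photoreceptor-like class was higher at day 200 than at day 60. In the VSX1 cluster of rod-like cells alone CLU was at 939 CPM at day 60, 301 at day 90 and 413 on chip a against 732 on chip b.

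**Figure D3:**
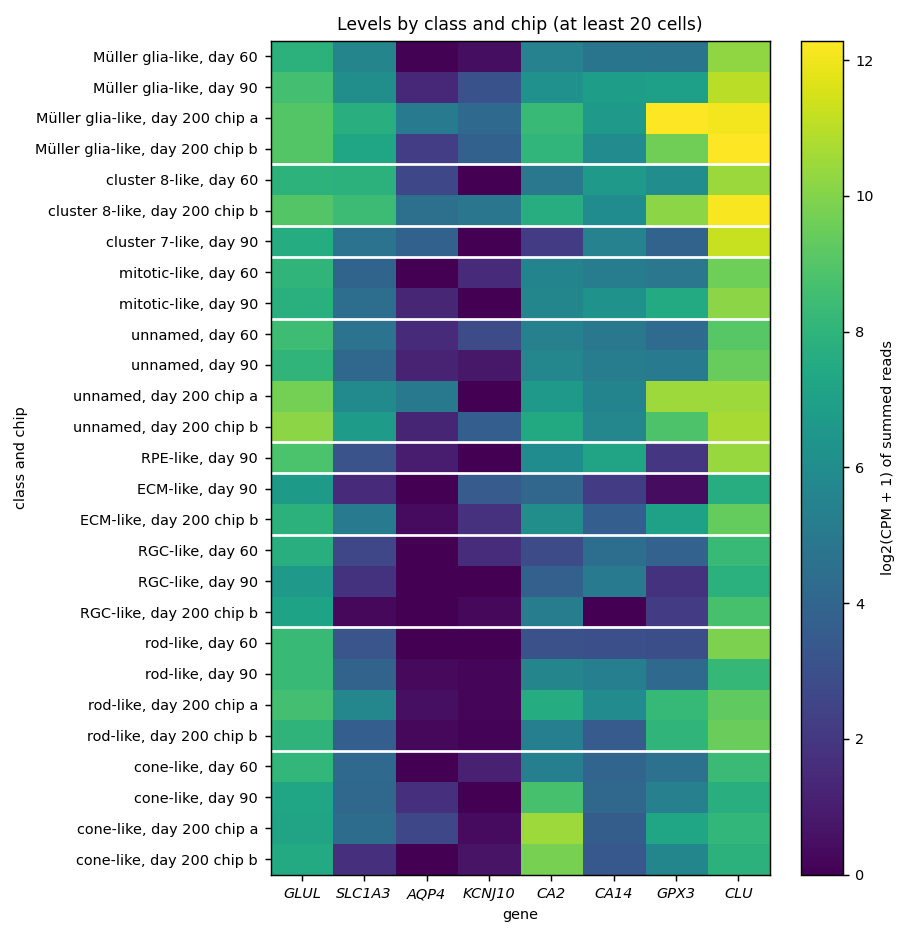
Level of each gene as log2(CPM + 1) of the summed reads of a class on a chip, for the 27 sums of at least 20 cells. CLU is bright in Müller glia-like cells of day 200 and in cells like cluster 8 of chip b, GPX3 is brightest in Müller glia-like cells of chip a, CA2 is brightest in cone-like cells from day 90, and AQP4 and KCNJ10 are dark in most sums.

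Levels of different genes were compared per length, as CPM per 1000 bases of the MANE Select transcript. At day 60 the order was CLU (282), GLUL (34.5), CA2 (20.01), CA14 (15.8), GPX3 (13.3), SLC1A3 (9.75), KCNJ10 (0.331) and AQP4 (0.203). On chip b of day 200 it was CLU (1048), GPX3 (333), CA2 (146), GLUL (64.5), SLC1A3 (30.4), CA14 (23.5), KCNJ10 (1.87) and AQP4 (0.839). On chip a GPX3 (1291) lay above CLU (715), CA14 (33.8) above SLC1A3 (25.1) and AQP4 (3.17) above KCNJ10 (1.13). These 3 pairs of neighbours changed places between the chips, so their order at day 200 does not stand out from the spread. CA2 and GPX3 both lay below GLUL at day 60 and, per length, above it on both day 200 chips. In CPM without division by length, GPX3 still did so. CA2 then lay below GLUL on both, at 420.4 against 454 CPM on chip a and 228 against 487 CPM on chip b. Whether reads of these barcoded libraries scale with transcript length was not tested, so an order that rests on the division is uncertain.

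The 8 genes were then counted together in single cells, each cell thinned to 50000 reads, which left out 6 shallower cells of day 90. The share of all cells with a read of at least 4 of the 8 was 10.03% (7.71 to 12.8) for day 60, 16.9% (14.2 to 20.04) for day 90 and 32.9% (28.01 to 38.01) on chip a against 38.8% (33.9 to 43.9) on chip b. Without thinning the shares were 15.1%, 28.3%, 60.4% and 53.02%. Among Müller glia-like cells it was 10.97% (6.52 to 16.98), 24.4% (17.9 to 31.9), 59.5% (49.7 to 68.7) and 59.3% (50.1 to 68.1), so the day 200 chips, which differed in the number of genes per cell, were alike in this share. Cells outside the class had 9.69% (7.05 to 12.9), 14.6% (11.6 to 18.04), 20.8% (15.9 to 26.4) and 29.1% (23.6 to 35.02). Cells like cluster 8 reached 68% (53.3 to 80.5) on chip b, in 50 cells. Mitotic-like cells had 17.5% (9.05 to 29.1) at day 60, in 63 cells, so Müller glia-like cells did not stand out at that time point. The median Müller glia-like cell had a read of 2 members at day 60, 3 at day 90 and 4 on both day 200 chips. The most found in a cell were 7, in 3 cells of day 200, all of them Müller glia-like.

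**Figure D4:**
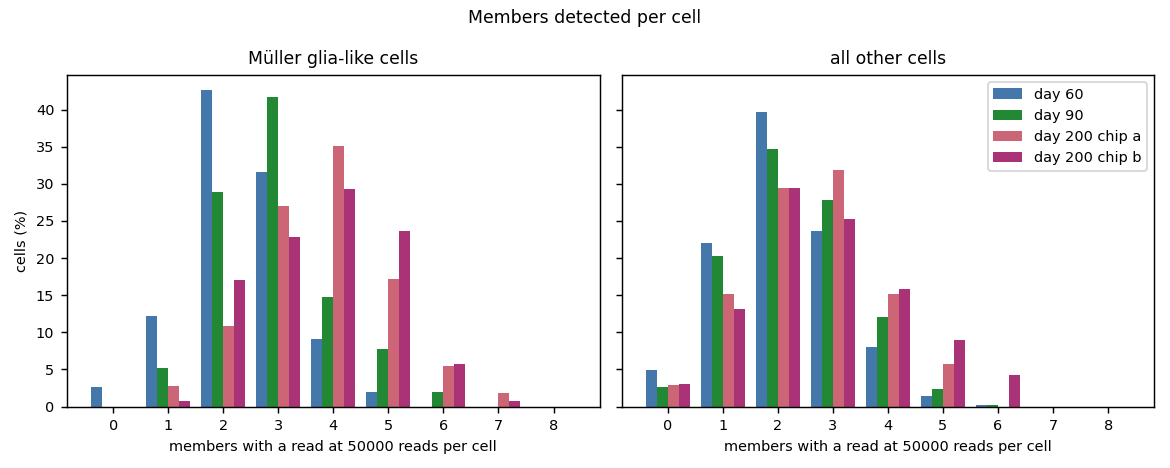
Share of cells (%) by the number of the 8 genes with a read after thinning to 50000 reads per cell, for Müller glia-like cells (left) and all other cells (right), with 1 bar per chip. The Müller glia-like cells peak at 2 genes at day 60, 3 at day 90 and 4 on both day 200 chips.

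Cell by cell, rank correlations among the members were low. Over the 28 pairs, the Spearman correlation among Müller glia-like cells at 50000 reads was near 0 for most, and these cells share a chip and its depth. The 3 highest were GPX3 with CLU on chip a (0.43, n = 111 cells, against 0.05 on chip b, n = 123), CA2 with GPX3 on chip b (0.36, against 0.30 on chip a) and CA2 with CLU on chip a (0.35, against 0.19 on chip b). CA2 with GPX3 was the only one of these pairs with a similar value on both chips. Over the 27 sums of classes on chips, which share libraries and sizes, the members closest to each other by Pearson correlation of log2(CPM + 1) were GPX3 and SLC1A3 (0.78) and SLC1A3 and CLU (0.77). CA2 lay apart from CLU (0.08) and CA14 (0.13).

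By the same measure over the 27 sums, among genes with a mean of at least 10 CPM, the genes most like GLUL were CD9 (0.79), APOE (0.78) and P2RY1 (0.74). CD9 is a tetraspanin, also on the list of astrocyte genes used below, and APOE is the main lipid carrier made by retinal glia. For SLC1A3 they were CD9 (0.89), P2RY1 (0.84) and ENKUR (0.82), and for GPX3 SRPRB (0.82), TF (0.79) and CD9 (0.79), of which TF, transferrin, is a marker of the class. CLU was most like NUDT4 (0.86), COL18A1 (0.86) and ZHX2 (0.83). CA14 was most like SOX9 (0.84), PDLIM5 (0.82) and ELAVL1 (0.79), and SOX9 is the transcription factor that marks Müller glia and pigment epithelium. For CA2 the 3 were PNKD (0.79), FAM19A3 (0.78) and EGF (0.77). For AQP4 they were PLA2G16 (0.72), PAAF1 (0.72) and PPT1 (0.71), and for KCNJ10 CA12 (0.77), IGFBP6 (0.72) and CXCL2 (0.68), where CA12 is another carbonic anhydrase and IGFBP6 a secreted binding protein. These values describe the 27 sums and carry no test.

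Lists of neighbouring genes give the setting, read against the same 7.70% and 3.23% of all genes. Of 16 measured genes of glutamate, GABA and amino acid transport past the minimum, 4 were higher on both day 200 chips (SLC1A7, SLC6A9, SLC38A3 and SLC7A11) and none lower. SLC7A11, the cystine and glutamate exchanger, was at 12.8 CPM at day 60, 69.6 at day 90 and 78.5 on chip a against 64.5 on chip b. SLC1A7, a glutamate transporter of photoreceptors and bipolar cells, was at 8.51 CPM at day 60, 76.7 at day 90 and 113 on chip a against 46.6 on chip b. The other 12 did not pass. SLC6A9 and SLC38A3 lie outside the rule for named genes and were named after their values were seen, as were DMD, SLC16A1, GPX1, GPX4, SOX2, SOX9, HES1 and LHX2 in the other lists.

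Of 13 potassium and water channels, pumps and anchors, 8 were higher and none lower. KCNMA1, a calcium-activated potassium channel, was at 18.3 CPM at day 60, 71.2 at day 90 and 158 on chip a against 80.3 on chip b. The dystrophin gene DMD, whose short product anchors Kir4.1 and aquaporin 4 at glial endfeet, was higher too, at 36.4 CPM at day 60, 40.6 at day 90 and 85.1 on chip a against 115 on chip b. AQP1 was at 3.80 CPM at day 60, 32.6 at day 90 and 21.4 on chip a against 39.01 on chip b, with 3.09 and 15.8 CPM in Müller glia-like cells of the day 200 chips.

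Of 14 carbonic anhydrase and bicarbonate or lactate transport genes, 3 were higher and none lower. CA12 was at 6.47 CPM at day 60, 9.88 at day 90 and 30.9 on chip a against 75.8 on chip b, and CA9 at 1.86 CPM at day 60, 25.3 at day 90 and 13.8 on chip a against 31.7 on chip b. Both are membrane-bound enzymes, and CA9 is a known target of hypoxia signalling. The third was SLC16A1, a lactate carrier, at 10.3 CPM at day 60, 17.3 at day 90 and 29.3 on chip a against 32.6 on chip b. None of 17 peroxide and glutathione defence genes passed in either direction, whereas GPX3 did. Its relatives GPX1 (169 CPM at day 60, 199.5 at day 90 and 189.7 on chip a against 180.3 on chip b) and GPX4 (316 CPM at day 60, 175 at day 90 and 281 on chip a against 235 on chip b) stayed within 2-fold on both chips.

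Of 12 secreted carriers and chaperones, 8 were higher and none lower, with a median log2 difference of 2.27. TF was at 4.34 CPM at day 60, 48.7 at day 90 and 1201 on chip a against 798 on chip b. Ceruloplasmin (CP), the copper carrier and ferroxidase, was at 17.4 CPM at day 60, 99.5 at day 90 and 366 on chip a against 350.0 on chip b. The small heat shock protein gene CRYAB was at 68.4 CPM at day 60, 316 at day 90 and 462 on chip a against 532 on chip b, but it also led the unnamed stress cluster. Of 18 genes of Müller glia identity, 9 were higher and none lower. RLBP1, the retinaldehyde carrier, was at 3.39 CPM at day 60, 156 at day 90 and 210.0 on chip a against 86.05 on chip b, WIF1 at 1.15 CPM at day 60, 44.2 at day 90 and 366 on chip a against 293 on chip b and CD44 at 8.79 CPM at day 60, 51.97 at day 90 and 148 on chip a against 222 on chip b, whereas SOX2, SOX9, HES1 and LHX2, which progenitors share with glia, were within 2-fold of day 60. The study chose TF, SPP1 and WIF1 on these cells as markers of its Müller glia cluster, so they are not independent evidence. The same holds for CLU and GPX3 among the 8 genes.

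Other genes of the tissue differed between the same chips. Of the 10 markers each that the study lists for its classes, 9 of cones were higher on both day 200 chips (median log2 difference 2.92), 7 of rods (2.25) and 8 of RPE (1.91), while 9 mitotic markers (-2.33) and 7 of RGCs (-1.93) were lower. The study chose these lists on the same cells, and their part in the sums over all cells was not tested. Of the 9 astrocyte genes, all rows of the table, 5 passed the minimum and 1, CD9, was higher on both chips. Their summed level was 115 CPM at day 60, 293 at day 90 and 189.7 on chip a against 337 on chip b. GFAP, the defining astrocyte filament, was at 0.867 CPM at day 60, 19.7 at day 90 and 0.103 on chip a against 78.3 on chip b. The cells like cluster 8, led by GPC3, SPARCL1 and S100B, share S100B with this list. On chip b, among classes with at least 20 cells, they had the highest SLC1A3 (347 CPM), AQP4 (22.4), KCNJ10 (27.6) and GPX3 (1124). SLC14A1 was listed at 0 on 3 chips and had 0.199 CPM at day 90. Of the microglia and vessel genes, 4 were rows of the table, with a sum between 6.39 and 29.02 CPM, most of it CLDN5, and AIF1 and PECAM1 were listed at 0 on both day 200 chips. The part of astrocyte-like cells in the levels of the 8 genes was not tested.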

How the data were processed

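Single-cell RNA of retinal organoids was measured with Fluidigm C1 chips and full-length cDNA libraries. The authors trimmed reads with Trimmomatic 0.33, aligned them with STAR 2.4.0 to GRCh38.p7 with GENCODE 25, counted them with HTSeq 0.6, and used Scater to drop poor cells and rare genes. Their cell filters differed by time point, with a lower read minimum at day 60 and a larger allowed share of spike-in reads at day 90. The day 90 chip was their first experiment and had more concentrated spike-in. Time point thus cannot be told apart from experiment and filter. Raw counts were deposited by the authors, that is whole reads per gene and cell in 1 table. Cells were mapped to their chip column by the deposited cell list, and columns not mapped to a sample numbered 0. Positions are from GENCODE 44, and the counts were not changed.

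Reads were summed per chip or per class and chip and scaled to CPM without the spike-in row. Differences are on the log2(CPM + 1) scale, which understates the change of low genes, and a call asked for 2-fold on both day 200 chips. Medians and background used genes with a mean of at least 5 CPM over the 4 chips. No count test was run, since day 60 and day 90 had 1 chip each and the day 200 chips leave 1 residual degree of freedom. Whether the day 200 chips came from separate cultures is not given in the sources used here. Column totals lay between 3414268 and 7999822 reads, and cells had a median of 164352, 160343, 251929 and 212201 reads at day 60, day 90, chip a and chip b. Cells were clustered with Seurat 5.3.0 in R 4.3.3 (CCA, 1000 variable genes per time point, 20 dimensions, resolution 0.6). Class names are rebuilt here and may differ from those of the study. Doublets were called with Scrublet in scanpy 1.11.5 per chip, kept in the main values and left out in an alternative. It called 1 and 0 at day 60 and day 90, too few to count as working there. Intervals are exact Poisson or Clopper-Pearson at 95%. Shares of cells with a read used cells thinned to 50000 reads.

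On simulated data, 9 cell profiles in 1976 cells gave 9 clusters with 100% of cells in their own. The profiles came from the cells ranked highest on each marker list and were assigned at random over the chips. With such distinct profiles and no time or chip effect, the 100% does not show that the real classes are distinct. The real cells also gave an unnamed cluster of 316 cells. In a simulated comparison of day 200 against day 60, 181 of 181 genes changed 4-fold were called among 11955 genes, with 0 of 11774 unchanged genes called. The 8 genes and the lists were chosen with earlier results of these data known. From the lists the text names genes at least 4-fold different between day 60 and both day 200 chips, at most 5 per list, and those at 0 on a chip. A gene that this rule would name is not reported here. For likeness the text names 3 genes per member. KCNJ16, KCNK4, AQP9, CA7, CRYAA, SERPINA3, HES5, PTPRC, CX3CR1, C1QA, C1QB and VWF were on the lists and were not analysed here. Alternatives covered the scaling (TMM of edgeR 4.0.16 and median of ratios), the pseudocount, the low-level filter, the thinning depth, the clustering, the doublets, the cell filter and each day 200 chip left out.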

Additional observations from a re-analysis of the deposited data

Results flagged for a closer look

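The log2 differences of 4 genes between day 200 and day 60 had 1 direction on both day 200 chips in Müller glia-like cells and the opposite direction on both chips in a photoreceptor-like class. None of these differences between classes was tested. For GLUL the mean over both chips was 1.13 in Müller glia-like and -0.76 in cone-like cells, 1.89 apart. For KCNJ10 it was 3.55 and -0.63, 4.18 apart, with 9 reads in 2 Müller glia-like cells of day 60. Its cone-like values rest on 12 reads in 1 cell at day 60 and on 5 and 4 reads at day 200. For CA14 it was 1.51 and -0.51, 2.02 apart. For CLU it was 1.91 in Müller glia-like cells, -0.32 in cone-like and -0.50 in rod-like cells, 2.23 and 2.41 apart. None of these cone-like or rod-like falls reached 2-fold on either chip. The cone-like sums rest on 46 cells of day 60, 59 of chip a and 28 of chip b.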

How the results depend on the processing

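No paired analysis was possible because no result comes from a test and each time point before day 200 has 1 chip. Of the 8 genes, 6 or 7 were higher at day 200 with either day 200 chip left out, and 4 with a pseudocount of 10. Leaving out a chip cannot lower this count, since a call asks for both chips. The median log2 difference of 1.64 became 1.06 with a pseudocount of 10 and lay between 1.34 and 1.75 with either chip left out, 1.34 being the value without chip b. Within Müller glia-like cells the median of 2.33 became 1.51 with a pseudocount of 10 and 1.76 when the class was taken from the highest mean of the marker lists with no clustering, and lay between 2.09 and 2.49 with either chip left out. The count of 8 genes higher in these cells became 6 with a pseudocount of 10. The share of cells with at least 4 genes was 25.9 percentage points higher at day 200 than at day 60, 41.5 points higher without thinning, and between 22.8 and 28.8 higher with either chip left out. No result changed direction in any alternative. Of 72 values for single genes, 68 moved by less than the spread between the day 200 chips. Those with a chip left out could not move further than this spread, so they carry no support. Genes with a wide spread between the chips, such as AQP4 and GPX3, also pass this mark most easily. The 4 values that moved further were AQP4 (0.81) and KCNJ10 (0.60) with a pseudocount of 10, and GLUL (0.98) and KCNJ10 (2.24) in cells with at least 150000 reads and at most 10% mitochondrial reads. The cause was not tested. The larger Müller glia-like cluster alone and the count within the class were chosen after seeing the data. Reads without molecular identifiers and 1 chip per early time point limit the precision, most of all for AQP4 and KCNJ10.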

Other observations

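The 8 genes were also read in classes that are neither glia-like nor photoreceptor-like. RGC-like cells had 209.9 CPM of GLUL at day 60 and 139 CPM on chip b. Their CLU was at 317 and 423 CPM, and their CA2 at 6.01 and 35.5 CPM. Mitotic-like cells of day 60, 63 in number, had 266 CPM of GLUL, 14.8 of SLC1A3 and 752 of CLU. ECM-like cells, led by collagen genes, had 199.8 CPM of CLU at day 90 and 669 on chip b, and 0.348 and 129.8 CPM of GPX3.

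Some genes of the lists were listed at 0 over every cell of a chip, in the order day 60, day 90, chip a and chip b. Catalase, CAT, had 0, 5.32, 0 and 0 CPM. GPX2 had 0, 2.35, 0 and 0 CPM, SOD3 had 0, 1.08, 2.41 and 1.11 CPM and ID3 had 0, 0, 0 and 0.0673 CPM. SLC6A13 had 0, 3.46, 0 and 1.36 CPM, KCNK2 had 1.79, 0, 1.32 and 0 CPM and SLC4A2 had 1.87, 0.959, 0 and 0 CPM. Of the carbonic anhydrases, CA1 had 0, 0.337, 0 and 0 CPM, CA4 had 0, 2.19, 0 and 0.897 CPM and CA6 had 0.0667, 0.0518, 0 and 0 CPM. Of the astrocyte genes, SLC14A1 had 0, 0.199, 0 and 0 CPM, GJB6 had 0, 11.3, 0 and 7.15 CPM and BCAN had 0, 2.67, 1.88 and 2.17 CPM. Of the microglia and vessel genes, AIF1 had 4.52, 2.58, 0 and 0 CPM, PECAM1 had 3.31, 0, 0 and 0 CPM and CDH5 had 0, 0, 0 and 2.06 CPM. A gene that most cells use, such as CAT, at 0 over 578 cells can be a failed count, so these values bear no reading of absence.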
